A study of Mus musculus with 10 samples.

Results

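Cluster 7 of the colonic crypts is a group of 147 cells, chosen as every kept cell of the normal and the DSS colonic library whose deposited annotation starts with the number 7. It is part of 3065 kept colonic cells and 25204 kept cells in the whole series. Of its members, 139 came from the library of colonic crypts from DSS treated mice and 8 from the library of colonic crypts from normal mice. The deposited annotation gives the cluster no cell type name beyond "other". The members made up 7.19% of the DSS cells (139 of 1933, exact 95% binomial interval 6.08 to 8.43%) and 0.707% of the normal cells (8 of 1132, 0.306 to 1.39%). Outside the 6 leukocyte-rich clusters the shares were 9.34% (7.91 to 10.9%) and 0.876% (0.379 to 1.72%). These intervals, and all others given here, cover counting error only.

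The series is a single-cell RNA-sequencing study of mouse intestinal organoids, with 1 library of normal colonic crypts and 1 library of DSS colonic crypts beside them. DSS (dextran sulfate sodium) is a chemical given in drinking water that injures the colonic epithelium. The methods name 8-week-old female mice for the colitis model, without tying them to these libraries. Strain, number of mice and day of sampling are not given for either colonic library in the sources used here, nor are age and sex for the normal one, and neither label names a further allele or agent. With 1 library a group no test was possible, so differences are given as sizes with counting intervals. Because most members come from 1 library, a group of cells particular to DSS and a group particular to that library cannot be told apart. The culture and dissociation text deposited with the libraries describes organoids and small intestinal crypts, and how the colonic crypts were isolated and pooled is not given in it.

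The colonic epithelium renews from stem cells at the base of the crypts, and its absorptive cells, the colonocytes, mature as they move towards the surface. Mature surface colonocytes absorb water and salt, take up short-chain fatty acids, and carry apical enzymes such as carbonic anhydrase 4. They also secrete antibacterial proteins into the mucus. Hox genes of the posterior groups mark position along the gut, with group 13 used at its far end.

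The libraries differed in more than the treatment. Xist, the RNA that silences an X chromosome in female cells, had 9494 UMIs (unique molecular identifiers, 1 per captured transcript molecule) in the normal library and 3 in the DSS library. The Y-linked genes Ddx3y, Eif2s3y, Kdm5d and Uty had 0 UMIs in the normal library and between 348 and 2100 in the DSS library. The Y-linked UMIs of the DSS library go against the female mice that the methods name for the colitis model. Sex-linked transcripts thus separated the libraries in the same way as DSS did, and their part in any difference cannot be told apart from that of the treatment. Of the cell barcodes, 2 occurred in both libraries, and 0 of those belonged to cluster 7.

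The 139 DSS members held 2180496 UMIs and the 8 normal members 118567 UMIs. Median depth was 16334 UMIs and 3476 genes per DSS member against 17594 UMIs and 3567.5 genes per normal member. Both groups reached down to cells of little more than 1000 UMIs, and 30 DSS and 3 normal members had under 1500 genes. In the normal members 1 cell supplied 26.8% of all UMIs. A gene with 0 UMIs in the 8 normal cells could still have been present at up to 25.3 CPM (UMIs of a gene in all members of a library, scaled to the same total for each library), the level that 3 counts would give. The corresponding limit in the DSS members was 1.38 CPM.

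Cluster 7 carried the markers of mature surface colonocytes. The 15 late colonocyte markers summed to 57044 CPM in its DSS cells and 51431 CPM in its normal cells, against 15063 and 21791 CPM in all other cells of the same libraries. Among groups of at least 5 cells, this was close to the 56080 CPM of cluster 17 in the DSS library. In the normal library it lay near the 50102 CPM of cluster 6 and below the 69241 CPM of cluster 12, a cluster of 93 normal cells and 1 DSS cell. Of the 14 late colonocyte markers that passed the level filter, 8 were at least 2-fold above the other colonic cells in both libraries and 1, Mal, was at least 2-fold below, against 3.67% and 12% of all 5972 genes. The 8 included Lypd8, a secreted protein that binds flagellated bacteria, at 36095 CPM in DSS and 27428 CPM in normal members. They also included Muc13, a membrane mucin, at 3271 and 2496 CPM, and Slc26a3, the chloride and bicarbonate exchanger of the colonic surface, at 464 and 810 CPM. Lypd8 supplied most of the list's sum in both groups, so 1 gene weighs heavily when cluster 7 is set beside other clusters. Because the clusters were made from these same genes, such differences describe the cluster and were not tested.

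Markers of most other cell types were low. The 8 leukocyte markers summed to 35.8 CPM in the DSS members and 0 CPM in the normal members, against 567 and 295 CPM in the other cells. Ptprc, the common leukocyte gene, was found in 2 of the 139 DSS cells and 0 of the 8 normal cells. The stem cell list summed to 37.6 and 50.6 CPM, the tuft cell list to 3.67 and 8.43 CPM, and the Paneth cell list to 0 CPM in both. The goblet cell list reached 1140 CPM in DSS and 177 CPM in normal members, far below the 141690 CPM of cluster 19. T cell genes summed to 13.3 and 0 CPM, B or plasma cell genes to 30.7 and 0 CPM, enteroendocrine genes to 20.2 and 8.43 CPM, and cycling genes to 135 and 202 CPM. Fibroblast and endothelial genes reached 1.83 CPM each in DSS members and 0 CPM in normal members, and glial genes 0 CPM in both. The macrophage list stood at 62.8 CPM in DSS and 186 CPM in normal members, against 270 and 68.2 CPM in the other cells, and its only gene past the level filter was Cd14, a receptor for bacterial lipopolysaccharide. The 10 epithelial genes, by contrast, summed to 22419 and 19449 CPM. The 10 early colonocyte markers summed to 4086 CPM in DSS members and 12592 CPM in normal members, against 3571 and 7401 CPM in the other cells. Sycn, the gene of a secretory granule protein, supplied 5592 CPM of the normal sum, and 1 normal cell held 86.7% of its UMIs. On the late colonocyte markers the members are called late colonocyte-like cells below.

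**Figure D1:**
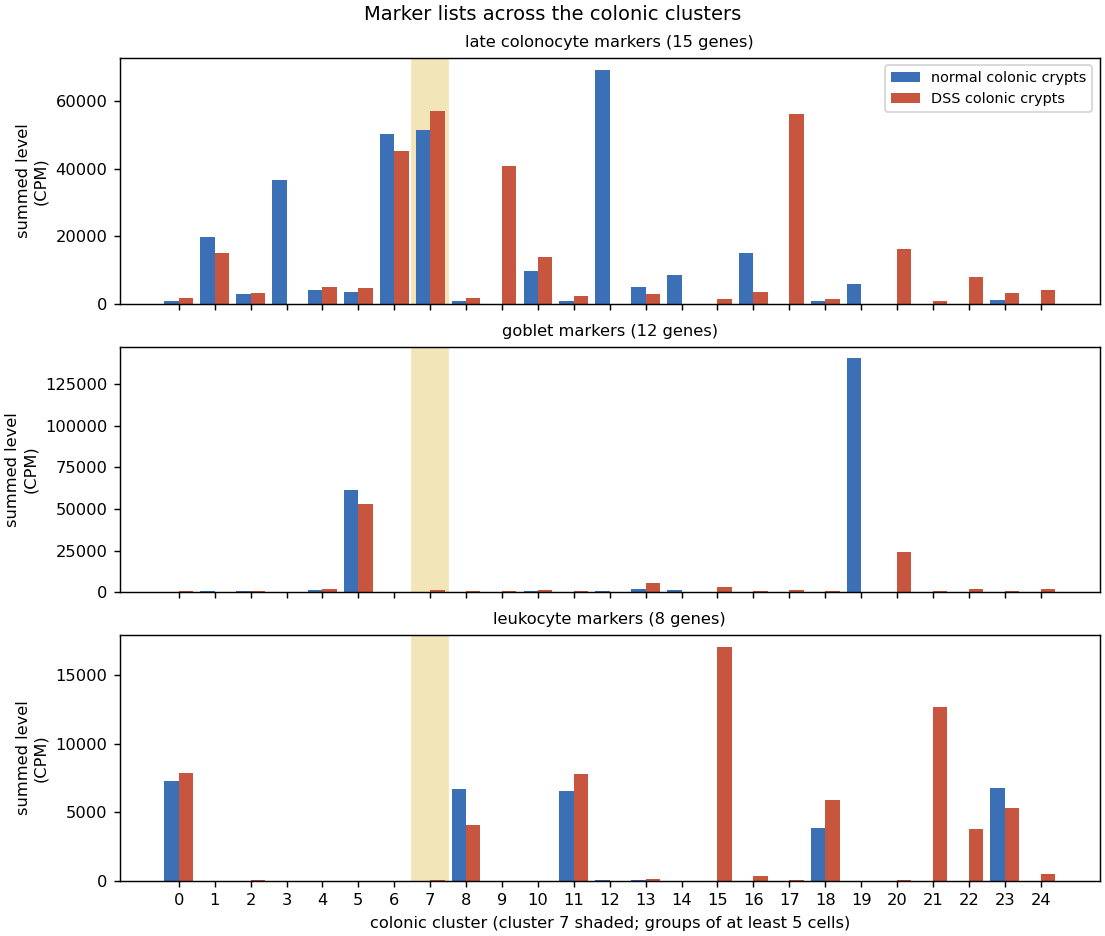
Summed level of the late colonocyte, goblet and leukocyte markers (CPM, vertical axes) in each colonic cluster (horizontal axis), with blue bars for the normal and red bars for the DSS library, groups of at least 5 cells only. Cluster 7, shaded, lies among the highest bars for late colonocyte markers, with 51431 CPM in normal and 57044 CPM in DSS cells, and close to 0 for leukocyte markers.

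To compare cells of unequal depth, each was thinned at random to 3000 UMIs, which left out 24 DSS and 2 normal members that held fewer. In the remaining 115 DSS members the late colonocyte list took a median of 174 of 3000 UMIs (5.80%), and the lowest cell still had 59. In the 6 normal members left the median was 172.5 UMIs and the lowest 93. Cells of cluster 0 in the DSS library, a leukocyte-rich cluster in which 88.4% of cells held Ptprc, had a median of 5 UMIs and at most 18. For this list the 115 DSS members and those 138 leukocyte-rich cells did not overlap. The clusters were made from these same genes, so this separation is a description and no independent support for the name. The members did overlap DSS cells of cluster 9 (median 124, range 25 to 316 UMIs) and of cluster 6 (median 132, 43 to 296). They also overlapped normal cells of cluster 3 (median 112, 26 to 260).

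The genes that set cluster 7 apart were found by a fixed rule. Among genes of at least 50 CPM in both libraries, the 25 with the largest ratio to all other colonic cells of the same library were taken, using the smaller of the 2 ratios. Of 5972 genes, 219 (3.67%) were at least 2-fold above the other cells in both libraries and 719 (12%) at least 2-fold below. The leader was Tgm3, a transglutaminase that crosslinks proteins, on chromosome 2 (130012349 to 130050399, plus strand, GRCm38). It stood at 1412 CPM in DSS and 2775 CPM in normal members, against 25.7 and 143 CPM in the other cells, which is 52.8-fold and 19.3-fold with 1 CPM added to each level. After thinning, 91.3% of the DSS members held a Tgm3 UMI, against 5.80% of the leukocyte-rich cells and 43.4% of the normal cells of cluster 3, a cluster made almost wholly of normal cells. Median depth before thinning was 19233 UMIs in those members and 4196 UMIs in those leukocyte-rich cells.

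Saa1, serum amyloid A1, an acute phase protein (chromosome 7, 46740497 to 46742980, minus strand), was the most abundant of the leading genes in DSS cells. Its level was 8968 CPM in DSS and 9556 CPM in normal members, against 427 and 713 CPM elsewhere. The Saa1 UMIs were found in 94.8% of thinned DSS members, with a quartile range of 11.5 to 47 UMIs per cell. Leukocyte-rich cells held one in 44.9% of cases, with at most 3 UMIs per cell. In clusters 9, 6 and 3 the shares were 61.1%, 60.6% and 47.4%, with up to 168, 67 and 53 UMIs per cell. Saa1 has a close relative, Saa2, and reads shared between such copies could be lost or assigned to either gene. Prdx6, a peroxiredoxin that reduces peroxides, followed at 6543 CPM in DSS and 13925 CPM in normal members against about 1000 CPM elsewhere (1024 and 1001 CPM).

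Several leading genes encode a pump, a channel, carriers or a membrane enzyme. Atp12a, the potassium pump of the distal colon, stood at 460 and 363 CPM in DSS and normal members against 3.67 and 27.4 CPM elsewhere. Car4, the carbonic anhydrase on the surface membrane, stood at 1182 and 1931 CPM against 70.5 and 364 CPM. Aqp8, a water channel, stood at 1212 and 506 CPM against 35.3 and 119 CPM. Transporters of peptides (Slc15a1, 150 and 169 CPM), of creatine (Slc6a8, 794 and 641 CPM) and of small amino acids (Slc36a1, 105 and 143 CPM) belonged to the same 25. So did Slc37a2, a sugar phosphate carrier, at 72.9 and 101 CPM.

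The other leading genes had varied roles. Cyp2d9, Cyp2d10 and Cyp2d34 are members of 1 cytochrome P450 family, stood between 67.5 and 403 CPM, and are similar enough in sequence that their counts can trade reads. Rdh16 and Rbp2, which handle retinoids, stood at 128 and 136 CPM in DSS members. Bmp2, a signalling ligand of the surface epithelium, stood at 95.8 CPM in DSS and 110 CPM in normal members against about 20 CPM elsewhere (20.5 and 19.4 CPM). Eno3 and Tnni1, best known as an enolase and a troponin of muscle, stood at 320 and 263 CPM in DSS members, against 17.1 and 26.4 CPM in the other DSS cells. Ggh, Abat, Sectm1b, Selenop, Fhl1 and Gpr137b completed the list.

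**Figure D2:**
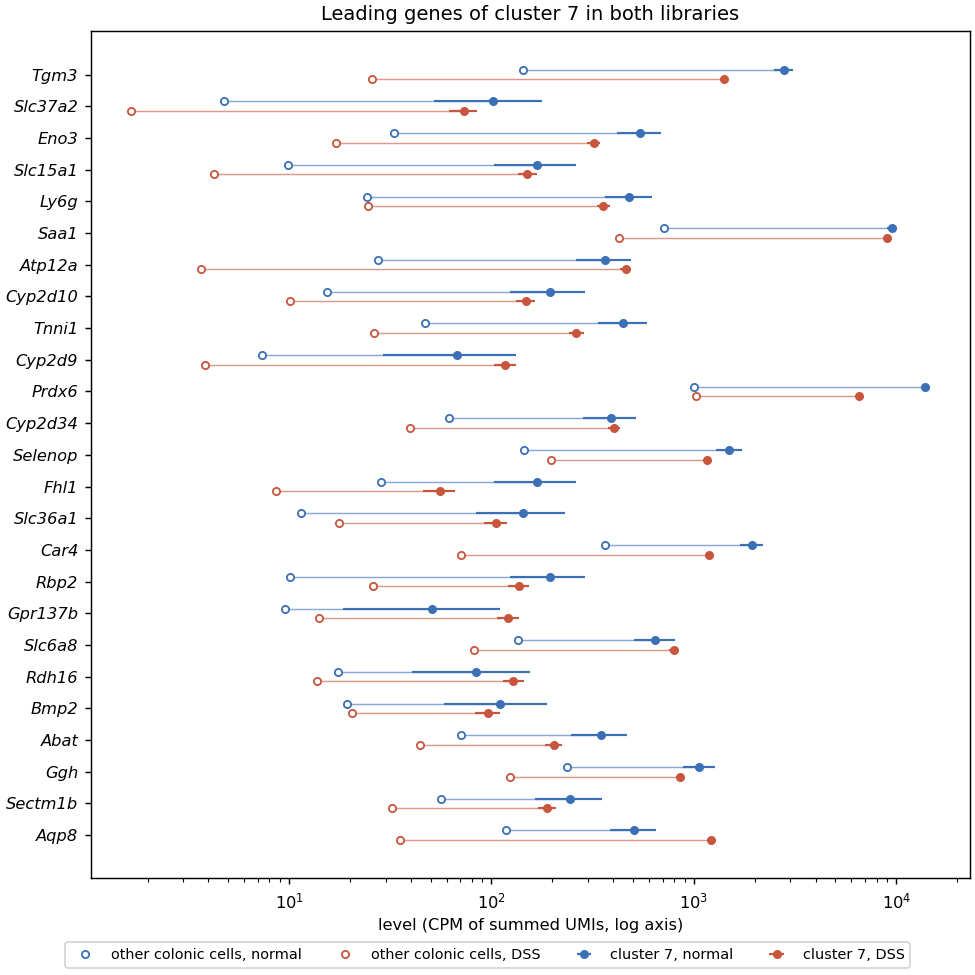
Levels (CPM of summed UMIs, log axis) of the 25 leading genes in cluster 7 (filled points, with exact 95% Poisson intervals) and in all other colonic cells (open points) of the normal (blue) and DSS (red) libraries. Every filled point lies to the right of its open point, because the genes were chosen that way, and the widest gaps include Tgm3 at 1412 against 25.7 CPM and Atp12a at 460 against 3.67 CPM in DSS cells.

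Ly6g, a surface protein used as a neutrophil marker (chromosome 15, 75155240 to 75159126, plus strand), was among the leading genes. It stood at 357 CPM in DSS (779 UMIs) and 481 CPM in normal members (57 UMIs), against 24.6 and 24.2 CPM elsewhere. In thinned cells 52.2% of the DSS members held it, against 1.45% of the leukocyte-rich cells. Those cells, of cluster 0, had a T cell list of 14447 CPM and a neutrophil list of 88.2 CPM. They are therefore no measure of Ly6g in neutrophils. The neutrophil genes S100a8 and S100a9 had 217 and 232 UMIs in the same DSS members and 0 UMIs in the normal members. In cluster 15, the DSS cluster with the highest neutrophil list, the counts were 69 UMIs for Ly6g, 21946 for S100a8 and 37324 for S100a9. The ratio of Ly6g to S100a8 and S100a9 together was therefore 1.73 in cluster 7 and 0.00116 in cluster 15. Cluster 9 of the DSS library, the cluster most alike in overall profile, had 418 UMIs of Ly6g and a ratio of 6.06, and 30.5% of its thinned cells held Ly6g. Of 115 thinned DSS members, 60 held Ly6g, 5 held S100a9 and 2 held both. With only 5 cells holding S100a9, these counts cannot show whether the 2 genes lie in different cells. The neutrophil list as a whole summed to 607 CPM in DSS and 481 CPM in normal members, against 2863 and 24.8 CPM in the other cells. Ly6g made up all of the sum in the normal members. In the normal cells of cluster 12 the neutrophil list summed to 237 CPM. Ly6 genes lie in a family of related copies, so the gene assignment of these reads carries some uncertainty.

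Genes of position along the gut were part of the profile. Hoxb13, a posterior homeobox gene (chromosome 11, 96194316 to 96197447, plus strand), stood at 401 CPM in DSS and 810 CPM in normal members, against 123 and 111 CPM in the other cells. It was found in 67.8% of thinned DSS members in 40.2% of the normal cells of cluster 3, and in 0.725% of leukocyte-rich cells. Hoxd13, from the same group, stood at 23.8 and 101 CPM, with 52 and 12 UMIs. Of 11 position genes that passed the filter, 3 were at least 2-fold above the other cells in both libraries, against 3.67% of all genes, and those were Hoxb13, Hoxd13 and Fxyd4, a regulator of the sodium pump. Cdx2, a homeobox gene used along the whole intestine, stood at 96.8 and 67.5 CPM in the members, against 179 and 230 CPM elsewhere.

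The 8 normal members can be read cell by cell. Saa1 was found in all 8, from 15 to 368 UMIs per cell, and Tgm3 in all 8, from 7 to 166. Hoxb13 was also present in all 8, from 1 to 25 UMIs. These genes were thus not carried by a single cell, although the deepest cell held 50.5% of the normal Tgm3 UMIs. Ly6g was found in 6 of the 8, Aqp8 in 5 and Atp12a in 6. Reg3b, Clca4b and Ptprc had 0 UMIs in every one of them.

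The clusters most alike in profile were 9, 3, 10 and 6, with Pearson correlations of mean log2 level with cluster 7 of 0.976, 0.975, 0.970 and 0.967 over 23810 genes (a description, since all clusters share the same 2 libraries). Cluster 9 holds 108 DSS cells, cluster 6 holds 157 DSS and 64 normal cells, and cluster 3 holds 274 normal cells. Cluster 10, with 103 DSS and 6 normal cells, was not compared gene by gene, so differences from it are not given here. Cluster 7 was set beside clusters 9, 6 and 3. The genes named were those of at least 50 CPM with the largest ratio and no single cell over 20% of the UMIs. That comparison was chosen after the data were seen. Fabp2, Car1 and Isg15 were named outside that rule, as members of the marker and pathway lists.

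Against cluster 9 of the same DSS library, 164 of 4947 genes (3.32%) were at least 2-fold higher and 167 (3.38%) at least 2-fold lower in cluster 7. Tgm3 stood at 1412 against 27.0 CPM, Atp12a at 460 against 8.22 CPM and Hoxb13 at 401 against 32.1 CPM. Sycn, a secretory granule protein, stood at 602 against 35.2 CPM, and Car4 at 1182 against 123 CPM. Lower in cluster 7 were Muc4, a membrane mucin (4.59 against 75.5 CPM), Mal, a protein of apical transport (1.38 against 74.0 CPM), and Krt7, a simple keratin (23.4 against 194 CPM). Ndrg1, a gene induced by low oxygen, stood at 36.7 against 247 CPM. The study's injury-associated regenerative up-list had 1 member at least 2-fold higher and 18 at least 2-fold lower among 45 that passed, with a median log2 ratio of -0.71, while the median of all genes was -0.03. Against cluster 6 of the DSS library 12 of 36 were higher and 2 lower (median 0.62), beside 7.01% and 4.44% of all genes. Against normal cells of cluster 3, 11 of 40 were higher and 9 lower (median 0.08), beside 4.56% and 5% of all genes. The summed level of the list was 6316 CPM in DSS members of cluster 7. It was 18530 CPM in cluster 9, 34031 CPM in cluster 6 and 5937 CPM in cluster 3. Against cluster 6 the sum thus went the other way from the median, with Reg3b and Reg3g on the list. DSS colitis was among the injury models from which the study drew that list, so the list is not independent evidence of its direction.

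Against cluster 6 of the DSS library the distance was larger, with 344 of 4910 genes (7.01%) at least 2-fold higher and 218 (4.44%) at least 2-fold lower in cluster 7. Tgm3 stood at 1412 against 2.68 CPM, and Hoxb13 at 401 against 3.27 CPM. Clca4b, a chloride channel accessory protein, stood at 1015 against 32.4 CPM. The lower genes included Reg3g and Reg3b, secreted lectins that act on bacteria. Reg3g stood at 41.3 against 4980 CPM and Reg3b at 538 against 26543 CPM. Of 11 antimicrobial and acute phase genes that passed, 7 were at least 2-fold higher and 3 lower, with a median log2 ratio of 2.87. Among single genes, the bile acid carriers Slc51a (7.80 against 479 CPM) and Slc10a2 (1.83 against 79.1 CPM) were lower too. Fabp2, a fatty acid binding protein, stood at 139 against 1914 CPM, and Car1, a cytosolic carbonic anhydrase, at 1868 against 22813 CPM.

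A Reg3b UMI was found in 33.9% of thinned DSS members of cluster 7 and in 71.0% of thinned leukocyte-rich cells of the same library. In cluster 6 the share was 96.4%, with a median of 59 UMIs per cell. Leukocyte-rich cells were shallower before thinning (4196 against 19233 UMIs), so free RNA can take a larger part of their UMIs, and whether the Reg3b of cluster 7 is free RNA was not tested. Of its Reg3b UMIs 74.2% lay in 1 cell. Reg3g gave 12.2% in cluster 7 and 18.1% in the leukocyte-rich cells. Hoxb13 and Reg3b UMIs occurred together in 26 of the 115 thinned members, with 78 cells holding Hoxb13 and 39 holding Reg3b.

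The DSS members of cluster 7 were also set beside the 274 normal cells of cluster 3, the cluster of mostly normal cells most like them, whose late colonocyte sum was 36644 CPM. Here treatment, sex-linked transcripts and cluster differ together and cannot be told apart. Of 4938 genes, 225 (4.56%) were at least 2-fold higher and 247 (5%) at least 2-fold lower in the DSS members. Clca4b stood at 1015 against 7.63 CPM, Aqp8 at 1212 against 48.3 CPM, Duox2, an oxidase that makes hydrogen peroxide at the surface, at 269 against 20.9 CPM, and Plet1, an epithelial surface protein, at 427 against 23.1 CPM. Genes of the interferon response were lower: 18 of 19 that passed were at least 2-fold lower, 0 were at least 2-fold higher, and the median log2 ratio was -2.18. Ifi27l2a stood at 1.83 against 630 CPM, Bst2, a protein that tethers viruses, at 10.6 against 404 CPM, and Isg15, a ubiquitin-like modifier, at 47.2 against 872 CPM. In cluster 12, the normal cluster with the highest late colonocyte sum, Isg15 stood at 3242 CPM, Hoxb13 at 330 CPM and Clca4b at 3.20 CPM. The interferon list was also higher in the other cells of the normal library as a whole (2774 CPM) than in those of the DSS library (1050 CPM).

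**Figure D3:**
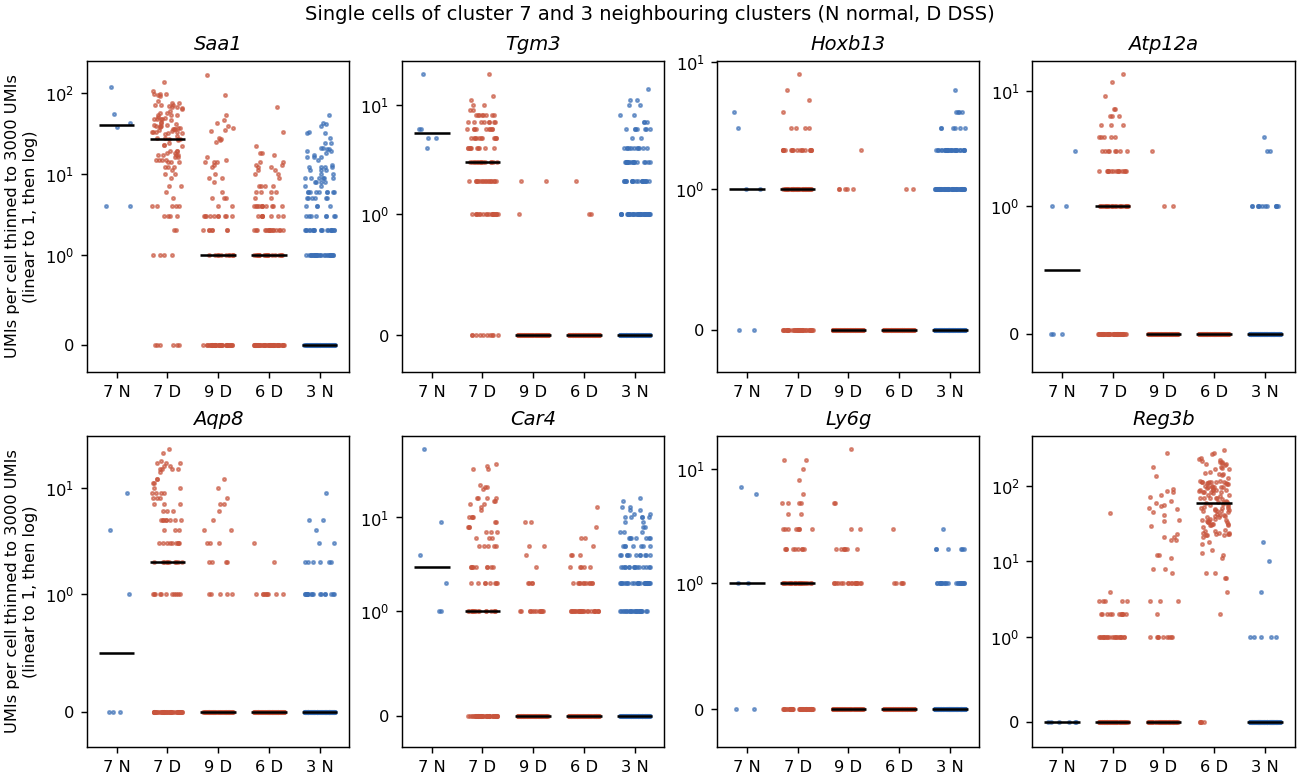
UMIs per cell after thinning each cell to 3000 UMIs (vertical axes, linear to 1 and then logarithmic) for 8 genes in normal (blue) and DSS (red) cells of clusters 7, 9, 6 and 3, with the median as a black line. Tgm3, Hoxb13 and Atp12a were found in 91.3%, 67.8% and 56.5% of the DSS cells of cluster 7 and in at most 6.32% of those of clusters 9 and 6, against 43.4%, 40.2% and 5.98% of the normal cells of cluster 3, while Reg3b is highest in cluster 6.

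Members of cluster 7 varied among themselves. In thinned DSS members Car4 ranged from 0 to 37 UMIs per cell with a median of 1, and 62.6% of the cells held it. Aqp8 ranged from 0 to 23 with a median of 2 and was found in 63.5% of the cells. Aqp8 and Car4 occurred together in 57 of 115 cells. Tgm3 was more even, with a median of 3 UMIs and a quartile range of 1 to 6. Mt1, a metallothionein that binds zinc and copper, ranged from 0 to 149 UMIs with a median of 1. Cells with large counts of other lineages were few: Spink4, a goblet cell gene, reached 119 UMIs in 1 cell while the median was 0, and Muc2, the main secreted mucin, reached 26.

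A UMI of any gene of the goblet list was found in 83 of 115 thinned DSS members, with a median of 1 UMI per cell. In cluster 9 the count was 55 of 95 cells and in cluster 6 it was 57 of 137. Spink4 was found in 31.3% of thinned DSS members, against 45.7% of the shallower leukocyte-rich cells, 16.8% of cluster 9 and 15.3% of cluster 6. Muc2 was found in 20.0%, against 37.0%, 11.6% and 12.4%. Of all Spink4 UMIs in the DSS members, 72.8% lay in 1 cell, and of all Muc2 UMIs 52.8%. Whether single members held 2 cells was not tested.

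Shallow members differed in part from deep ones. The 30 DSS members under 1500 genes held 68773 UMIs, with a median of 2343 per cell, against 19729 in the other 109. Hoxb13 stood at 393 CPM in the shallow and 402 CPM in the deep members, and Saa1 at 11676 and 8879 CPM. Car4 stood at 3417 against 1109 CPM, Malat1, a nuclear RNA, at 35668 against 9291 CPM, and Mt1 at 8739 against 1091 CPM. Tgm3 stood at 960 against 1426 CPM. The part of RNA quality in these differences was not tested.

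DSS and normal members of cluster 7 were compared next, within a cluster made from the same genes. Normal cells with high late colonocyte sums also lay in clusters 3, 12 and 6 (274, 93 and 64 normal cells). Those cells are outside the comparison, so it does not show how normal and DSS colonocytes differ in general. It rests on 8 normal cells, and 3078 of the 4784 genes that passed 20 CPM had under 10 UMIs in them. Of the 4784, 541 (11.3%) were at least 2-fold higher in DSS and 372 (7.78%) at least 2-fold lower, with 1 CPM added to each level. Of the 541, 31 had 0 UMIs in the normal cells, and for 12 of those the bound at 3 counts was under 2-fold. All 31 passed the level filter only through the DSS members, so their direction was fixed, also in the list counts below. After thinning each cell to 3000 UMIs, which left 6 normal cells, 1083 were higher and 1388 lower. At that depth 1 normal UMI stands for more than the filter of 20 CPM, so these counts show no change of direction. Without the deepest normal cell 598 were higher and 587 lower, and without the 5% of cells with the most UMIs 586 and 601. The counting interval of the ratio excluded 1 for 228 of the 541 and 194 of the 372. The median log2 ratio of all 4784 was 0.00.

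Chloride channel accessory genes stood first among the genes higher in DSS. Clca4b (chromosome 3, 144910921 to 144932529, minus strand) had 2213 UMIs, or 1015 CPM, in DSS members and 0 UMIs in the normal members, which makes it at least 40.1-fold higher. It was found in 74.8% of the thinned DSS members and in 7.97% of leukocyte-rich cells, and no DSS cell held over 3.62% of its UMIs. Clca3b, its neighbour in the family, had 257 CPM against 0 UMIs, at least 10.2-fold higher, and was found in 48.7% of thinned DSS members against 1.45% of leukocyte-rich cells. In cluster 9, the most alike, Clca4b stood at 733 CPM in DSS cells and was found in 60.0% of thinned cells. In cluster 6 it stood at 32.4 CPM in DSS and 4.71 CPM in normal cells, and in cluster 1 at 10.1 CPM and 0 CPM. Clca genes are close copies and their counts may share reads.

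The other 10 genes of this group had 0 UMIs in the normal members as well, and with 1 CPM added to each level such genes can rank above genes with a single normal UMI such as Wfdc18. Aqp4, a water channel, stood at 186 CPM in DSS members, at least 7.34-fold higher. In the normal cells outside cluster 7 it stood at 429 CPM and in cluster 3 at 990 CPM. Sptssb, a subunit of sphingolipid synthesis, stood at 157 CPM, at least 6.22-fold higher, and Mt2, a metallothionein, at 109 CPM, at least 4.30-fold higher. Mt2 was found in 13.9% of thinned DSS members, with a median of 0 and at most 21 UMIs per cell. Ermp1, Pld1, Ganab, Pmepa1, Abhd6, Dhrs9 and Guca2b had bounds from 3.68-fold down to 2.08-fold. For Pmepa1 the share of thinned DSS members with a UMI, 18.3%, was below the 34.8% in leukocyte-rich cells, and whether those cells express it was not tested.

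Some genes at high level in both groups differed as well. Aqp8 was higher in DSS by a log2 ratio of 1.26 (0.89 to 1.65), Krt20, a keratin of mature surface cells, by 1.12 (0.77 to 1.48), and Sprr2a3, a small proline-rich protein, by 1.19 (0.97 to 1.43). Aqp8 was uneven among the normal members, with 2 UMIs in the deepest cell of 31743 UMIs and 18 in a cell of 4273 UMIs. The counting interval does not cover that spread between cells. Sprr2a3 stood at 3126 CPM in DSS and 1366 CPM in normal members. Car1 was lower, at 1868 against 5752 CPM, and so was Prdx6. Saa1 and Muc13 stood within 2-fold of their normal levels, with log2 ratios of -0.09 and 0.39.

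Genes lower in DSS were harder to name. Of 227 genes of at least 50 CPM in normal members and at least 2-fold lower in DSS, 0 met the limit of 20% of UMIs in a single normal cell, with 8 cells of unequal depth. The 12 genes given instead, chosen after the values were seen, were at least 50 CPM and found in at least 4 of the 8 normal cells. Xist, with 29 UMIs in 7 normal cells and 0 UMIs in DSS members, came first. Selenbp1, a selenium-binding protein of colonocytes, stood at 3323 CPM in normal and 467 CPM in DSS members, a log2 ratio of -2.83 (-3.00 to -2.66), and was found in all 8 normal cells. Sycn stood at 5592 against 602 CPM, but 1 normal cell held 86.7% of its normal UMIs. Klk1, a kallikrein protease, stood at 945 against 190 CPM, with 60.7% of the normal UMIs in 1 cell, and it was lower in DSS in cluster 6 too, at 66.9 against 462 CPM.

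Ion transport genes and a transcription factor made up part of the rest. Fxyd4 stood at 388 CPM in normal and 42.2 CPM in DSS members, and Trpm6, a magnesium channel, at 127 and 27.1 CPM. Sox9, a transcription factor of the crypt base, stood at 127 and 24.3 CPM, with 73.3% of its normal UMIs in 1 cell. Irf7, a regulator of interferon genes, stood at 287 and 62.4 CPM. Nxpe5, Tppp3, Cyp2c68 and Spty2d1 completed the 12.

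**Figure D4:**
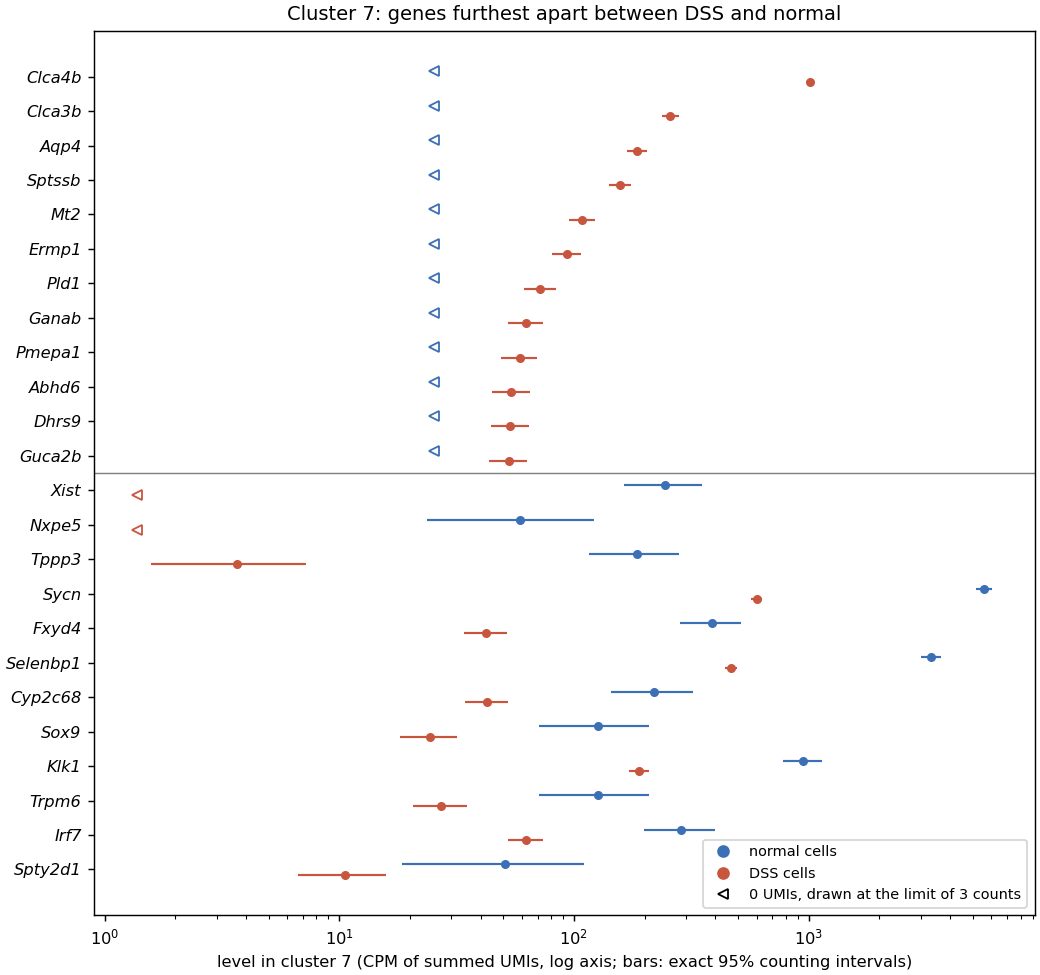
Levels in cluster 7 (CPM of summed UMIs, log axis) of the 12 genes with the largest ratios after adding 1 CPM (upper) and the 12 lower genes (bottom) in 8 normal (blue) and 139 DSS cells (red), with exact 95% Poisson intervals. Open triangles mark 0 UMIs, drawn at the limit of 3 counts, which is 25.3 CPM for normal and 1.38 CPM for DSS cells. All 12 upper genes have 0 UMIs in the normal cells, which places them first by this measure.

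Pathway lists were read against the shares of 11.3% higher and 7.78% lower over all genes. Among antimicrobial and acute phase genes, 7 of 10 that passed were at least 2-fold higher in DSS with 1 CPM added and 0 lower, with a median log2 ratio of 3.80, or 1.58 with genes at 0 UMIs set to their bound. Of the 7, 5 had 0 UMIs in the normal cells, and for 1 of them, Reg3g, the bound of 1.63-fold does not reach 2-fold. Those 5 passed the filter only through the DSS members, so their direction was fixed and both medians lean on them. In 5 of the 7, Reg3b, Reg3g, Slpi, S100a8 and S100a9, a single DSS cell held over 20% of the UMIs. The 2 without that limit were Duox2, at 269 against 118 CPM, and its maturation factor Duoxa2, at 273 against 59.0 CPM. S100a9 was found in 4.35% of thinned DSS members and 9.42% of the leukocyte-rich cells. In clusters 6 and 1 the same list had medians of 1.47 and 0.95.

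Genes of wound-associated and fetal-like epithelium included 8 of 18 that were at least 2-fold higher with 1 CPM added and 2 that were lower, with a median of 0.62. Of the 8, 3 had 0 UMIs in the normal cells and passed the filter only through the DSS members. For 2 of those 3 the bound does not reach 2-fold, and for Clu it is 1.74-fold. That median was -0.23 with a filter of 100 CPM and 1.19 with one of 5 CPM, so its direction depends on which genes are counted. Il1rn, an antagonist of interleukin 1, stood at 173 against 59.0 CPM, Anxa8, a membrane-binding annexin, at 114 against 42.2 CPM, and S100a11, a calcium-binding protein, at 187 against 16.9 CPM. Clu, clusterin, stood at 44.0 CPM against 0 UMIs, with 40.6% of its UMIs in 1 DSS cell. Ly6a, the gene of the SCA1 surface protein, stood at 1811 against 2117 CPM, a log2 ratio of -0.23, and Anxa1 at 372 against 295 CPM. The regenerative up-list of the study had 15 of 38 at least 2-fold higher and 4 lower, with a median of 0.59, Reg3g counted among the 15. Among these 15, 2 had 0 UMIs in the normal cells and passed the filter only through the DSS members. Its medians in clusters 6 and 1 were -0.05 and -0.10. DSS colitis was among the injury models behind that list, so its direction here is not independent evidence. The 15 also share Reg3b, Reg3g, Duox2, Duoxa2 and S100a11 with the 2 lists above.

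Interferon response genes leaned the other way, with 0 of 11 at least 2-fold higher, 5 lower and a median of -0.98. Isg15 stood at 47.2 CPM in DSS and 152 CPM in normal members. Its share of thinned DSS members, 6.96%, was below the 26.8% of leukocyte-rich cells, which may express the gene themselves. The medians of this list in clusters 6 and 1 were -0.42 and -0.54. Dissociation stress and AP-1 genes had 4 of 20 lower and 0 higher with a median of -0.69, among them Jund, an AP-1 subunit, at 1800 against 3795 CPM and the chaperone gene Hsp90aa1 at 135 against 304 CPM. For cholesterol synthesis 1 of 15 was lower and 0 higher, with a median of -0.77, and the medians were -1.12 and -1.25 in clusters 6 and 1. Cyp51, a demethylase of that pathway, stood at 82.5 against 177 CPM, with 52.4% of its normal UMIs in 1 cell.

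The 13 glycolysis genes, 23 nuclear-encoded respiratory chain genes and 12 mitochondrial-encoded transcripts had 0 members past 2-fold in either direction, with medians of 0.12, -0.11 and -0.43. Butyrate use, fat oxidation and ketone synthesis had 1 of 19 higher, Pparg, a nuclear receptor, at 47.2 against 16.9 CPM with 2 UMIs in the normal cells. Hypoxia genes had 3 of 9 higher and 0 lower with a median of 0.93, among them Hif1a, the oxygen-regulated transcription factor, at 361 against 169 CPM. The hypoxia median was 0.39 without the deepest normal cell. Mucus and goblet secretion genes had 9 of 13 higher with a median of 1.78, but 3 of the 9 had a single DSS cell over 20% of the UMIs, Spink4 and Muc2 among them. Of the glycosylation enzymes in that list, Galnt3 stood at 56.4 against 8.43 CPM with 1 UMI in the normal cells, and C1galt1 at 101 against 33.7 CPM.

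Ion and water transport genes were mixed, with 4 of 16 at least 2-fold higher, 3 lower and a median of -0.15. The higher ones were Aqp8, Clca4b, Aqp4 and Slc9a3, the sodium and proton exchanger of the apical membrane, which stood at 65.6 against 16.9 CPM with 2 UMIs in the normal cells. The lower ones were Car1, the carbonic anhydrase Car2, at 791 against 1602 CPM, and the bicarbonate carrier Slc4a4, at 30.7 against 127 CPM. Early colonocyte markers had 0 of 10 higher and 3 lower, Selenbp1, Sycn and the gasdermin gene Gsdmc3, at 41.7 against 127 CPM. Late colonocyte markers had 3 of 13 higher (Aqp8, Krt20 and Guca2b) and 1 lower (Car1), with a median of 0.01. Ceacam20 and Cdhr5, adhesion proteins of the brush border, had log2 ratios of -0.10 and 0.01.

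Detoxification genes had 6 of 23 at least 2-fold higher and 0 lower with a median of 0.05, the 6 being Cyp4f40, Gsta1, Gsta4, Mgst2, Ces2e and Ces2g. Genes of the unfolded protein response and secretory pathway had 5 of 20 higher and 1 lower with a median of 0.66, against -0.48 and -0.69 in clusters 6 and 1. Hspa5, the main chaperone of the endoplasmic reticulum, stood at 709 against 396 CPM. Its share of thinned DSS members, 75.7%, was below the 88.4% of leukocyte-rich cells. Chemokine and cytokine signals had 1 of 11 higher and 2 lower. Wfdc18, a small secreted protein named from the comparisons with clusters 6 and 3, stood at 414 CPM in DSS members and had 1 UMI in the normal members, a log2 ratio of 5.46 (3.13 to 10.92). It was found in 61.7% of thinned DSS members and 2.90% of leukocyte-rich cells.

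Position genes had 4 of 11 lower in DSS and 0 higher, the 4 being Hoxb13, Hoxd13, Hoxa9 and Fxyd4. The counting interval excluded 1 for 3 of the 4, and for 1 of the 4 a single normal cell held most of the normal UMIs. Hoxb13 had a log2 ratio of -1.01 (-1.32 to -0.69). Tight junction, keratin and brush border genes had 1 of 19 higher, Krt20, and 0 lower. BMP signalling genes had 0 of 7 past 2-fold, and MHC class I genes 1 of 6 lower, H2-T23. The regenerative down-list of the study had 3 of 32 higher and 7 lower, with a median of -0.06. The counting interval excluded 1 for 0 of those 3 and for 6 of those 7.

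**Figure D5:**
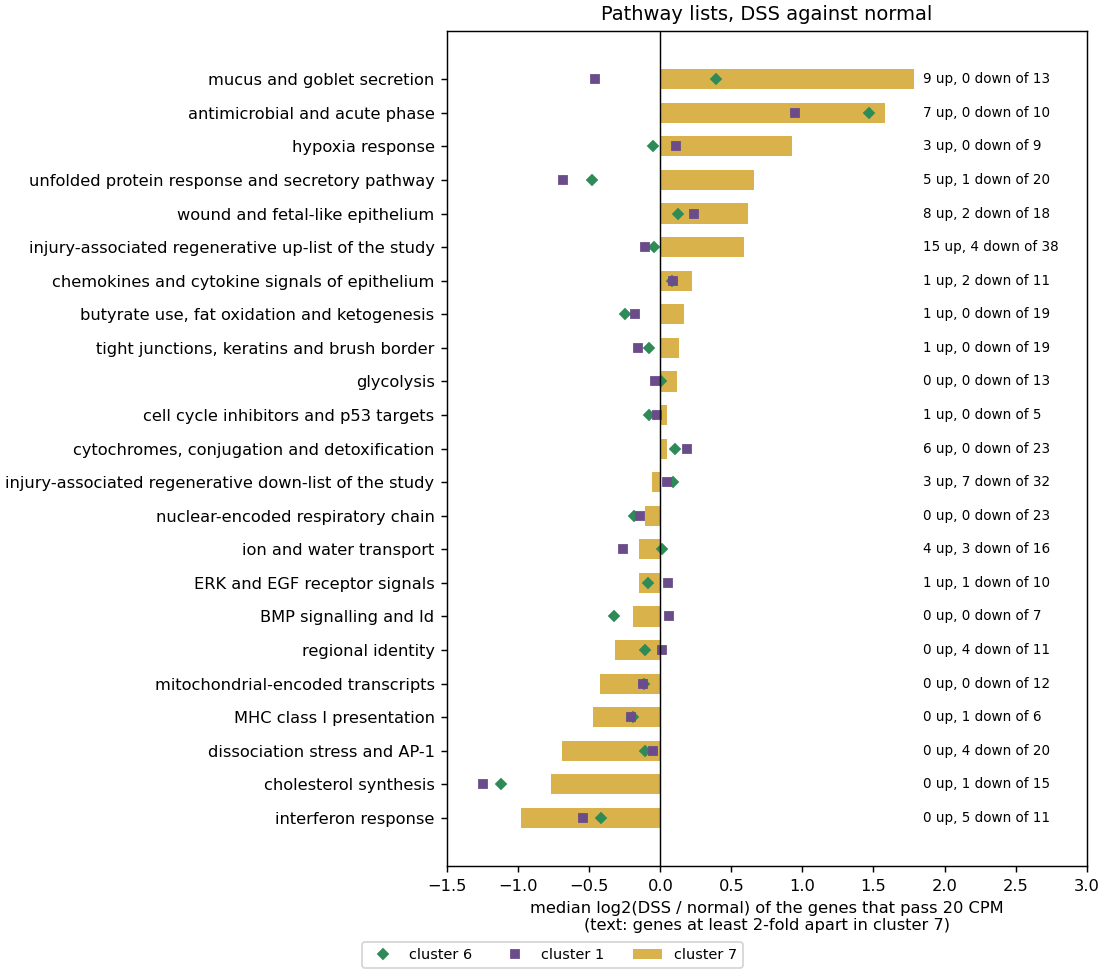
Median log2 ratio of DSS over normal for pathway lists with at least 5 genes past 20 CPM (horizontal axis), in cluster 7 (bars, genes at 0 UMIs set at their bound) and in clusters 6 (diamonds) and 1 (squares). The text at the right counts the genes of each list at least 2-fold higher or lower in cluster 7, from 7 of 10 higher for the antimicrobial list to 5 of 11 lower for the interferon list.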

How the data were processed

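The deposited values are UMI counts per gene and cell, which the authors made with Cell Ranger and did not normalize. The submitters' processing notes name Cell Ranger 3.0.0, Seurat 3.1.4 and the mm10 build, and the file headers name software version 3.1.0. Clusters are the authors' own annotation. The counts of the colonic cells were compared with the matrices of both libraries over 23775 genes, and 0 entries differed. The methods give a filter of at least 1500 genes, while the kept colonic cells go lower. All kept cells were used, doublets were not removed, and 0 columns of per-sample values were without a sample.

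UMIs were summed per library and cluster and given as CPM. For log2 ratios 1 CPM was added to each level. Genes with a mean of at least 20 CPM were compared, and 2-fold was the limit for calling one higher or lower. Intervals are exact at 95% (Poisson for levels, conditional binomial for ratios, Clopper-Pearson for shares), checked on simulated data. Ratios against 0 UMIs are bounds at 3 counts, per library, a smaller limit than the 2-sided intervals give. Named genes were the 25 leading genes, the 12 largest ratios each way of at least 50 CPM with no cell over 20% of the UMIs (altered for lower genes as stated), list members and markers. Chosen with earlier results of these data known were the members, the 18 marker lists and the 31 pathway lists, and the list genes not in the count table numbered 9. The likest clusters fixed for DSS against normal were 6 and 1, with at least 20 cells in each library. Coordinates and identifiers are from GENCODE vM21 (GRCm38, the same assembly as mm10). Python 3.11.15, numpy 2.4.6, scipy 1.17.1, pandas 2.3.3 and matplotlib 3.10.9 were used. Alternatives were another pseudocount, other level filters, means over cells, thinning, and leaving out shallow cells, Ptprc-holding cells or the cells with the most UMIs. The reads of near-identical genes (Saa, Cyp2d, Reg3, Clca, Sprr2a and Ly6 families) may be split between copies. The values of 2 genes are not reported here.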

Additional observations from a re-analysis of the deposited data

How the results depend on the processing

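No paired analysis was possible because each colonic group has 1 library. Of the 12 lower genes named from DSS against normal, 0 changed direction under the alternatives that were run. For Xist and Nxpe5 among them, and for the 12 higher genes, 1 group is at 0 UMIs, so the direction was fixed and says nothing about stability. The genes at least 2-fold higher and lower in DSS numbered 1467 and 994 with a filter of 5 CPM, 97 and 59 with 100 CPM, 1056 and 731 as a mean over cells of each cell's CPM, and 1083 and 1388 after thinning to 3000 UMIs, where 6 normal cells remain. Lower genes numbered 601 without the 5% of cells with the most UMIs and 587 without the deepest normal cell, an alternative chosen after seeing the data. The median of the antimicrobial list was 2.66 with a pseudocount of 5 CPM, 4.05 and 0.79 with filters of 5 and 100 CPM, 2.93 as a mean over cells, 4.65 with only cells of at least 1500 genes, 1.72 without Ptprc-holding cells, 1.39 without the deepest 5% of cells, 5.61 after thinning and 3.57 without the deepest normal cell. The wound and fetal-like list had 1.19 and -0.23 with filters of 5 and 100 CPM. Retinoid handling had 1.96 with the filter of 5 CPM, and chemokines and cytokine signals -0.70 with 100 CPM. After thinning, MHC class I presentation had -1.03 and BMP signalling -1.32. All medians after thinning rest on the few UMIs of 6 normal cells. The share of DSS cells in cluster 7 was 9.34% among clusters with at most 50% of cells holding Ptprc. Against the other colonic cells, lower genes numbered 1568 with a filter of 5 CPM, and 114 higher and 193 lower genes were found with 100 CPM. The filters change which genes are counted, and for the other settings the cause was not tested. The 8 normal cells set the depth limit of every comparison with DSS, and an estimate of the spread between mice cannot be had from 1 library a group.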
